A study of Mus musculus with 6 samples.

Results

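The heat shock and unfolded protein response genes are 36 named genes of protein folding and of the 2 stress pathways that control it, and 34 of them were among the 18193 genes measured. They comprised 8 cytosolic chaperones and co-chaperones, 3 mitochondrial chaperones, 11 chaperones and folding enzymes of the endoplasmic reticulum (ER), 3 genes of ER-associated degradation, 3 ER stress sensors, and Atf4 with 5 of its targets. Hsf1 and Hsp90ab1 were not analysed here. Genes were listed by name and not picked by their values, though earlier results of these data were known. Each was read from the probe set that carries its symbol alone and had the highest mean over the 6 arrays. The samples were leukaemias that a retroviral vector with N-myc and GFP (pMXs-IG) had produced in mice on a C57BL/6 background. Marrow donors of both groups were homozygous for a conditional gene-trap allele of Cdh1 (Cdh1 f/f) and received pIpC at 7 to 8 weeks of age. The Cdh1-intact donors were Mx1-Cre(-) and the Cdh1-deficient donors Mx1-Cre(+), from shared litters. The Mx1 promoter that drives the Cre responds to interferon, which pIpC induces, and is not limited to B cells. Donor marrow was taken 4 weeks after the last pIpC and 2 days after 5-fluorouracil at 150 mg/kg, and RNA of GFP-positive mononuclear marrow cells, sorted from each mouse when moribund, went onto 1 array, with 3 arrays per group. Cdh1 here is the APC/C coactivator encoded by mouse Fzr1, and not E-cadherin. Every value is a log2 level as deposited, and every difference is Cdh1-deficient minus Cdh1-intact.

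Chaperones bind unfolded or partly folded proteins and help them to reach their final shape. In the cytosol, misfolded protein releases the factor HSF1, which binds inverted GAA repeats (heat shock elements) in genes such as Hspa1a, Dnajb1 and Hsph1. In the ER, the sensors IRE1 (Ern1), PERK (Eif2ak3) and ATF6 raise ER chaperones and the degradation of misfolded proteins, and PERK also slows translation by phosphorylating eIF2alpha. That phosphorylation favours synthesis of the factor ATF4, whose targets include the factor CHOP (Ddit3), amino acid synthesis genes and Ppp1r15a, which encodes the eIF2alpha phosphatase subunit GADD34. Cells of the B lineage are known for their use of the unfolded protein response, most of all when they become antibody-secreting plasma cells.

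Promoter stretches were taken from RefSeq windows of 250 bases before to 50 after each annotated start (assembly GRCm38.p6), which covered 30 of the 34 genes. They are shown because they hold matches to elements of the 2 pathways, though not all genes of a group hold one. Capitals mark the motif on the strand of the gene, in either orientation, with 20 bases on each side where the window holds them. The Hspe1 stretch (chr1:55088039-55088096, + strand) holds 2 overlapping matches to the heat shock element GAANNTTCNNGAA, and it lies between the Hspe1 start and an annotated start of Hspd1, 216 bases away, from which Hspd1 is transcribed in the opposite direction. Another annotated Hspd1 start lies 95 bases on the other side of the Hspe1 start, so that the stretch is not between that pair.
Hspe1: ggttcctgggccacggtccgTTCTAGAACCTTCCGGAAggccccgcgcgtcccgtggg
The ER stress element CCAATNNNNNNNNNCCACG was found once before Hspa5 (chr2:34772005-34772063, + strand) and Dnajc3 (chr14:118937807-118937865, + strand) and at 2 places before Hsp90b1 (chr10:86705513-86705676, - strand).
Hspa5: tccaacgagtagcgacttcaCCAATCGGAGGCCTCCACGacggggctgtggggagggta
Dnajc3: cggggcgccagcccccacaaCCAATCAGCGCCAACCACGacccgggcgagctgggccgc
Hsp90b1: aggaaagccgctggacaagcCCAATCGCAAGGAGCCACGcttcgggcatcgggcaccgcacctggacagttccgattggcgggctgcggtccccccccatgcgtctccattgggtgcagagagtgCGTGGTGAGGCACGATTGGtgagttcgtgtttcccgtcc
Herpud1 (chr8:94386357-94386407, + strand) carries the variant ER stress element ATTGGNCCACG.
Herpud1: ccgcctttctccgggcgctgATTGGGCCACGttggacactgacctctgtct
The element TGATGNAA, to which dimers of C/EBP and ATF factors such as ATF4 bind, was found before Asns (chr6:7693205-7693252, - strand) and Chac1 (chr2:119351029-119351076, + strand), and the cyclic AMP response element TGACGTCA before Ppp1r15a (chr7:45526253-45526300, - strand).
Asns: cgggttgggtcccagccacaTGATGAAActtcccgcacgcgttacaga
Chac1: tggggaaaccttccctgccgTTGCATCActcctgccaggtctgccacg
Ppp1r15a: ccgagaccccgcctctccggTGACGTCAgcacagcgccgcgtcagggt

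Searched on both strands, the ER stress element was present in 7 of the 11 ER chaperone genes (Hspa5, Hsp90b1, Dnajc3, Calr, Canx, Pdia6 and Creld2) and in 37 of the 27025 genes with a window (0.137%). The variant element was found in Herpud1 alone among the genes described here and in 0.0444% of all genes. The heat shock element occurred in Hsph1, Hspd1 and Hspe1 and in 0.662% of all genes. Hsph1 was the only cytosolic chaperone among them, with its match after the start, and the window of Dnajb1 held none. TGATGNAA was found in Herpud1, Trib3, Asns and Chac1 and in 4.51% of all genes, and TGACGTCA in Ppp1r15a and in 2.03%. TGACGTGG, which the factor XBP1 can bind, was found in 0 of the 30 genes with a window and in 0.714% of all genes. A match is a description of letters in a window and not a binding site, and the lack of one says nothing of the factor. No window was available for Hspa8, Hsp90aa1, Hspa9 and Atf6.

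**Figure D1:**
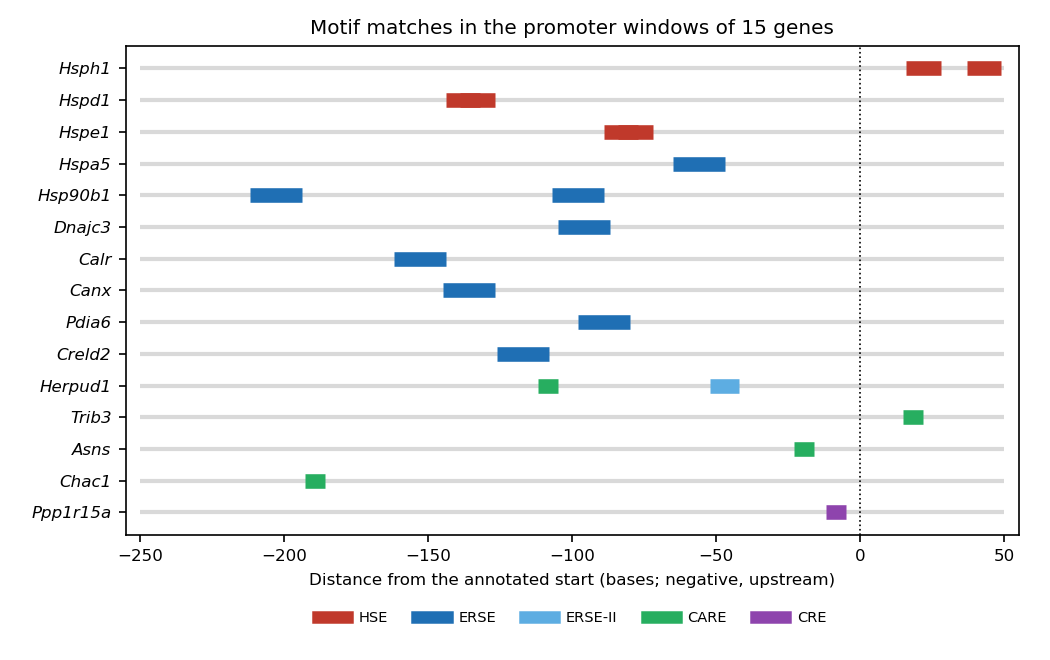
Positions of the motif matches in the promoter windows, with distance from the annotated start in bases on the x axis and 1 line per gene; bars are matches, coloured by motif (HSE, heat shock element; ERSE and ERSE-II, ER stress element and its variant; CARE, TGATGNAA; CRE, TGACGTCA). The ER stress element matches of the 7 ER chaperones all lie before the start, and Hsph1 has 2 bars because 1 genomic match is counted from 2 annotated starts.

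Fzr1, the gene of the deleted Cdh1, read 8.93, 8.04 and 8.92 in Cdh1-intact and 8.10, 7.73 and 8.22 in Cdh1-deficient cells (difference −0.61, adjusted p = 0.849, limma). The position of its probes relative to the gene trap is not known here, so the values do not check the labels. The arrays also differed in cell type transcripts. On Cdh1-intact array 2 the mean of 9 B-lineage markers was 4.87, against 8.72 to 9.46 on the other arrays, and that of 9 T- and NK-cell markers was 10.11. Cdh1-intact array 3 had a T- and NK-cell mean of 7.30, and the remaining arrays had means of 5.18 to 5.35. Cd79b of the B-cell receptor complex stood at 4.35 on Cdh1-intact array 2 and between 11.60 and 12.47 elsewhere. Cd3d, of the T-cell receptor complex, read 12.55 there, 8.69 on Cdh1-intact array 3 and at most 6.10 on the others. Neutrophil markers had a mean of 5.997 there and 9.14 to 11.40 elsewhere, so that the sorted cells of the other mice also carried neutrophil transcripts. The mean of 8 monocyte and macrophage markers was highest on Cdh1-intact array 1, at 8.24 against 5.12 to 7.37 elsewhere. That of 5 erythroid markers was 6.48 on Cdh1-intact array 1 and 4.50 to 5.31 elsewhere, though not each of the 5 was highest on Cdh1-intact array 1. The mean of 15 immediate early genes, induced quickly by stimulation or by handling of cells, was 10.28, 9.63 and 8.36 in Cdh1-intact and 7.40, 8.71 and 6.84 in Cdh1-deficient cells. All 15 were lower in the Cdh1-deficient mean (median difference −2.07), against 49.1% of all genes. Unadjusted p was under 0.05 for 8 (53.3%), against 1.49% of all genes that were lower at that threshold. Adjusted p was under 0.05 for 0 (limma). The part of these transcripts in the results was not tested, and in bulk RNA fewer cells of a type and less RNA per cell cannot be told apart.

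Among the 34 genes, 21 had a lower and 13 a higher mean in Cdh1-deficient cells. The median difference was −0.06, against 0.0034 over all genes. None passed the limma test, with adjusted p between 0.849 and 0.995, and over all genes the call rate was 0%. Of all genes 49.1% were lower, and among the 2472 genes whose mean over the arrays reached the median of these 34 it was 39.2%. Unadjusted p was under 0.05 for 2 genes, Dnajb1 and Atf4, both lower. That is 5.88% of the 34, close to the 5.50% of all genes (1.49% lower and 4.01% higher). The arrays of both groups did not overlap for 4 genes that were lower (Dnajb1, Dnajc3, Atf4 and Ddit3; 11.8%, against 5.09% of all genes) and 2 that were higher (Hspd1 and Hsp90b1; 5.88%, against 6.65%). Both shares without overlap are counts of a few genes.

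**Figure D2:**
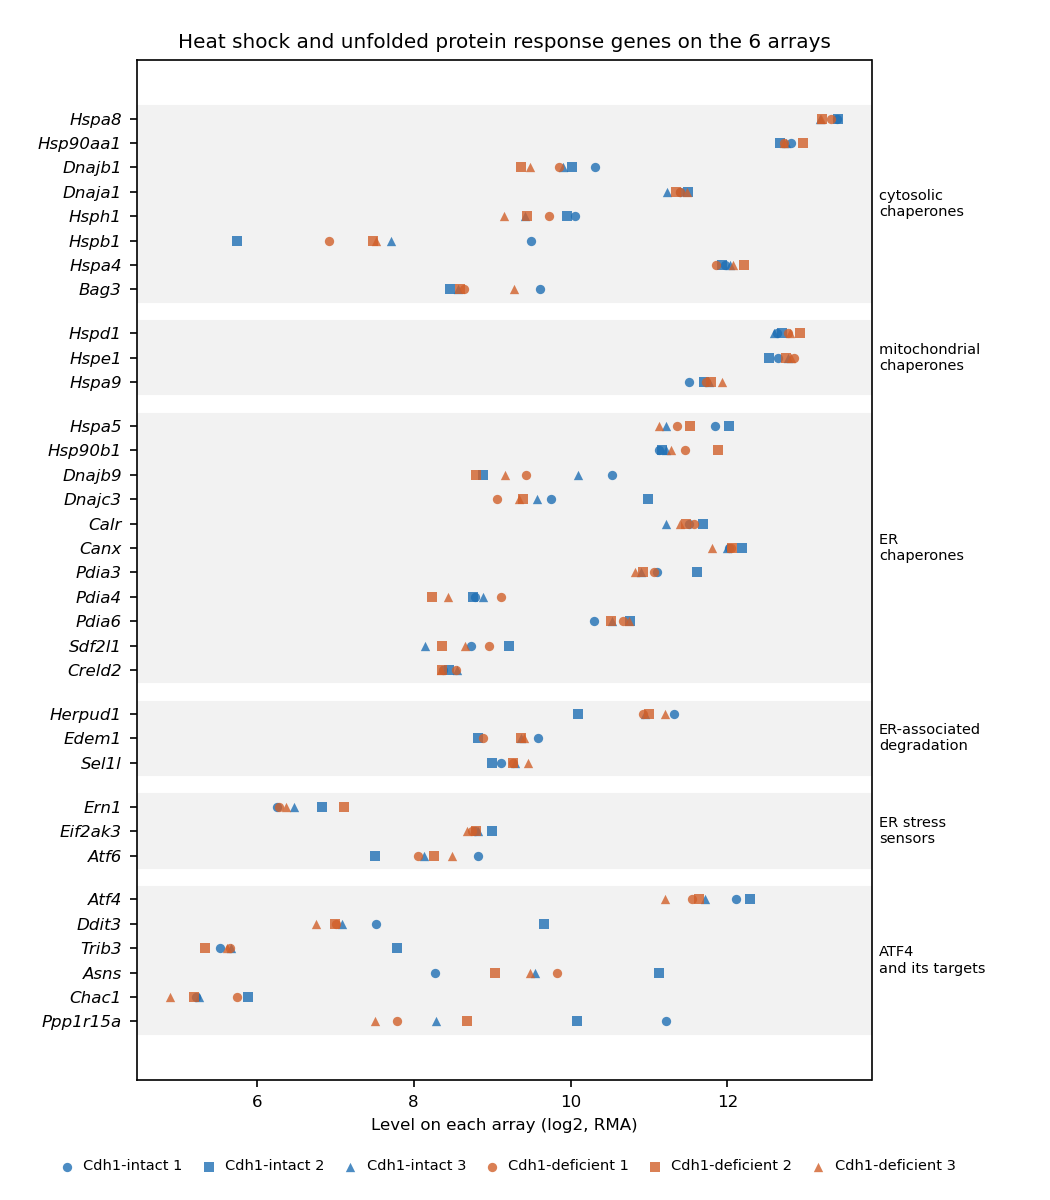
Log2 level on each of the 6 arrays (x axis) for the 34 genes (1 line each), grouped by role; marker shape gives the array number and colour the group. The mitochondrial chaperones lie within 0.42 over all arrays, while Ddit3, Asns, Trib3, Ppp1r15a and Hspb1 spread over 2.44 to 3.75.

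The genes differed widely in their spread over the arrays. The range over the 6 arrays exceeded 1 on the log2 scale for 13 of 34 genes (38.2%), against 22.5% of all genes. All 6 of Atf4 and its targets were among them, with a median range of 2.65, as were 2 of 8 cytosolic chaperones, 3 of 11 ER chaperones and 0 of 3 mitochondrial chaperones. The spread lay mostly among the Cdh1-intact arrays, whose SD was the larger for 24 of 34 genes (70.6%, against 65.5% of all genes). The highest value was on Cdh1-intact array 2 for 15 genes (44.1%, against 21.7% of all genes) and on Cdh1-intact array 1 for 9 (26.5%, against 20.4%). Cdh1-deficient array 3 held the lowest value for 10 (29.4%, against 14.7% of all genes).

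Hspa8, Hsp90aa1, Hspa4 and Dnaja1 were measured with little spread in the chosen probe sets, with ranges of 0.24 to 0.36 over the arrays. Some other probe sets spread more widely, at 7.33 to 11.53 for the dimmest of Hspa8 and 7.62 to 10.09 for 1 of Hspa4. Hspa8 encodes HSC70, the housekeeping member of the HSP70 family. It read 13.40, 13.41 and 13.17 in Cdh1-intact and 13.32, 13.21 and 13.19 in Cdh1-deficient cells, so the groups overlapped within 0.24. Its difference was −0.09, with a moderated standard error (SE) of 0.11. Hsp90aa1 encodes the HSP90 alpha isoform, which folds kinases and receptors, and read 12.81, 12.67 and 12.75 against 12.71, 12.97 and 12.72. Its difference of 0.05 (SE 0.11) depended on the probe set, since its other bright probe sets gave −0.30 and −0.34, each without overlap of the groups. Hspa4, an HSP70 nucleotide exchange factor, differed by 0.07 (SE 0.12), and Dnaja1, a J-domain co-chaperone of HSC70, by 0.03 (SE 0.11).

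Among the other cytosolic chaperones and co-chaperones, Dnajb1 was the one whose groups stood apart. It encodes HSP40, the J-domain protein that hands clients to HSP70, and read 10.31, 10.02 and 9.90 in Cdh1-intact and 9.85, 9.37 and 9.49 in Cdh1-deficient cells. The lowest Cdh1-intact array lay just above the highest Cdh1-deficient one. The difference was −0.51 (SE 0.18), a 1.42-fold lower level, with an adjusted p of 0.849 (limma). It was −0.54 without Cdh1-intact array 2, and −0.65 to −0.39 with each array left out. The second Dnajb1 probe set differed by −0.75, also without overlap.

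Hsph1 encodes HSP110, a disaggregase partner and exchange factor of HSP70. It read 10.05, 9.96 and 9.42 against 9.73, 9.44 and 9.15, with Cdh1-intact array 3 among the Cdh1-deficient values. Its difference was −0.37 (SE 0.23). Hspb1, the small heat shock protein HSP27, which holds unfolding proteins, read 9.49, 5.74 and 7.71 against 6.92, 7.48 and 7.52. Both extremes were Cdh1-intact arrays, and the difference of −0.34 (SE 0.91) was 0.58 without array 1 and −1.30 without array 2. Bag3, an exchange factor that links HSP70 to selective autophagy, read 9.62, 8.46 and 8.57 against 8.65, 8.60 and 9.28. Its difference of −0.04 (SE 0.36) lay inside the spread of either group, with Cdh1-intact array 1 and Cdh1-deficient array 3 high.

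The mitochondrial chaperones were higher in Cdh1-deficient means by similar small amounts. Hspd1 encodes HSP60, the barrel-shaped chaperonin of the matrix, and read 12.63, 12.70 and 12.59 against 12.77, 12.93 and 12.80. All Cdh1-deficient arrays lay above all Cdh1-intact ones, and the difference was 0.19 (SE 0.10). Hspe1 encodes HSP10, the lid of that chaperonin, and read 12.64, 12.53 and 12.77 against 12.85, 12.75 and 12.81. Its groups overlapped at Cdh1-intact array 3, and the difference was 0.15 (SE 0.11). Hspa9, the matrix HSP70 mortalin, read 11.51, 11.70 and 11.76 against 11.73, 11.79 and 11.93, a difference of 0.16 (SE 0.12) with overlap at the same array. The mean of the 3 was 12.26, 12.31 and 12.38 in Cdh1-intact and 12.45, 12.49 and 12.51 in Cdh1-deficient cells. Hspd1 and Hspe1 share the promoter stretch shown above, so they are not independent genes in this count.

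Of the 11 ER chaperones 8 were lower and 3 higher, with a median difference of −0.09 (−0.05 without Cdh1-intact array 2, when 7 were lower). Hspa5 encodes BiP, the ER member of the HSP70 family and the usual marker of ER stress. It read 11.84, 12.02 and 11.22 in Cdh1-intact and 11.36, 11.52 and 11.13 in Cdh1-deficient cells. Cdh1-intact arrays 1 and 2 were highest and array 3 lay among the Cdh1-deficient ones. The difference of −0.35 (SE 0.24) was −0.19 when Cdh1-intact array 2 was left out, and −0.59 when array 3 of that group was. Hsp90b1 encodes GRP94, the ER member of the HSP90 family. It read 11.13, 11.16 and 11.22 against 11.46, 11.88 and 11.29 and differed in the opposite direction, by 0.37 (SE 0.17), without overlap. Its other bright probe set differed by −0.23, also without overlap, so the direction depended on the probe set.

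Among the 11 ER chaperones the J-domain partners of BiP had the widest ranges over the arrays. Dnajc3 encodes P58IPK, which assists BiP and restrains PERK, and read 9.75, 10.99 and 9.57 against 9.07, 9.40 and 9.34. Cdh1-intact array 2 stood over 1 unit above every other array, and the groups did not overlap. The difference of −0.84 (SE 0.38) was −0.39 without that array. All 5 Dnajc3 probe sets were highest on Cdh1-intact array 2, but in the 4 not chosen the groups overlapped, with differences of −0.44 to −0.24. The mean of the 5 differed by −0.44. Dnajb9 encodes ERdj4, which directs misfolded proteins and the sensor IRE1 to BiP, and read 10.53, 8.89 and 10.09 against 9.44, 8.80 and 9.16. Here Cdh1-intact array 2 was low, the other Cdh1-intact arrays lay above all Cdh1-deficient ones, and the difference of −0.71 (SE 0.44) was −1.18 without array 2 (adjusted p = 0.801, limma) and −0.36 without Cdh1-intact array 1. On Cdh1-intact array 2 the B-lineage and neutrophil markers were low and the T- and NK-cell markers high, as given above. Their part in the Dnajb9 values was not tested.

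The lectin chaperones and the protein disulfide isomerases, which form and rearrange disulfide bonds, lay closer together. Calreticulin (Calr) differed by 0.01 (SE 0.15) and its membrane-bound relative calnexin (Canx) by −0.09 (SE 0.12). Pdia3, which works with both lectins, read 11.10, 11.61 and 10.89 against 11.06, 10.93 and 10.82. Its difference of −0.27 (SE 0.20) was −0.06 without Cdh1-intact array 2, the single high array. Pdia4 differed by −0.21 (SE 0.24), with Cdh1-deficient array 1 the highest of all arrays at 9.12 and array 2 the lowest at 8.23. Pdia6 differed by 0.11 (SE 0.15). The ER stress-inducible genes Sdf2l1, a partner of ER J-domain proteins, and Creld2, a disulfide isomerase, differed by −0.04 each (SE 0.30 and 0.11). The 7 ER chaperones with an ER stress element had a median difference of −0.04 and 4 of them were lower, and all 4 without one were lower, with a median of −0.24.

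**Figure D3:**
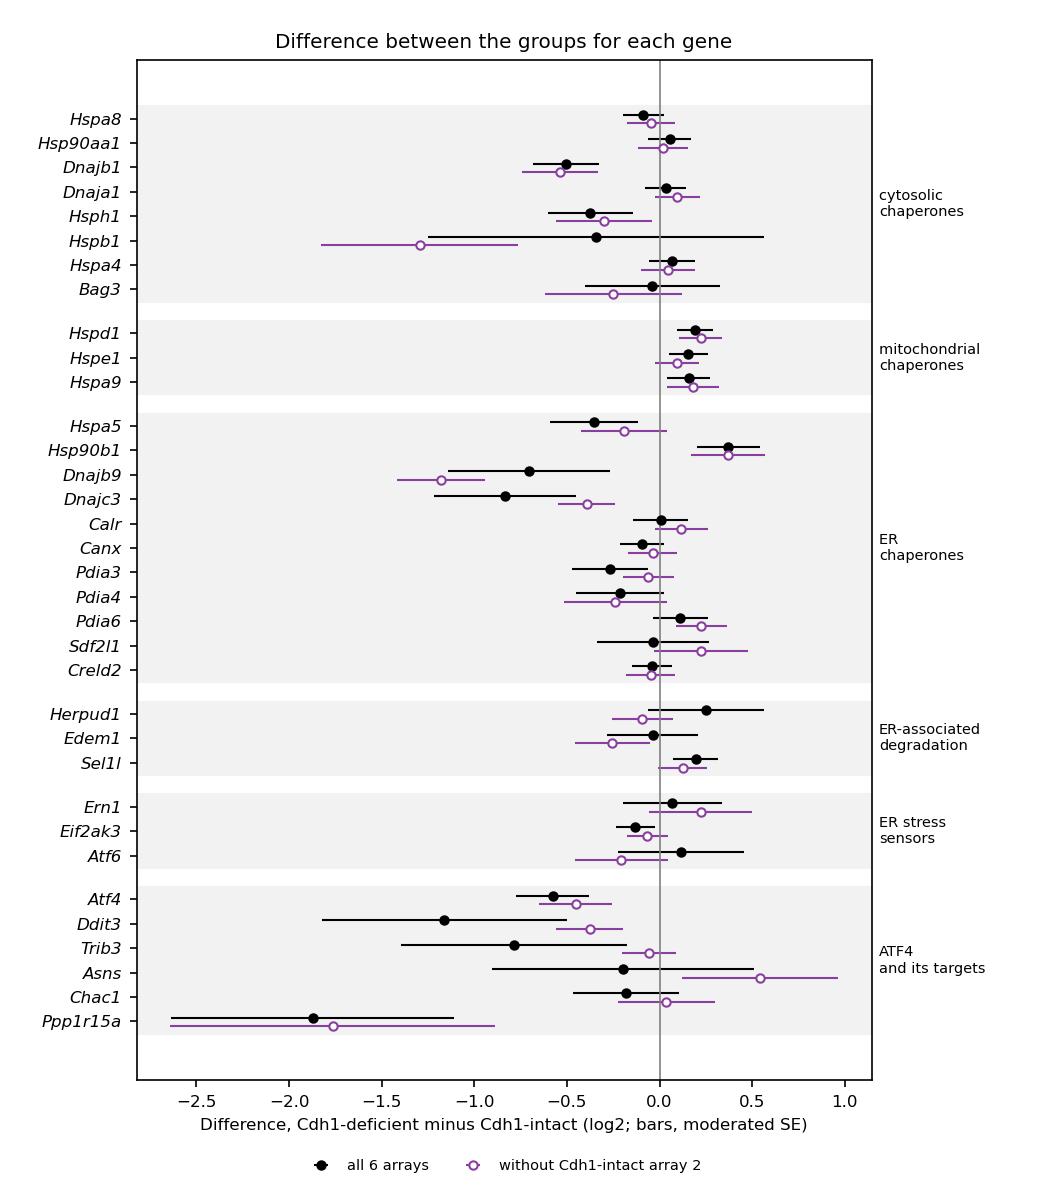
Difference of each of the 34 genes (Cdh1-deficient minus Cdh1-intact, log2, x axis) with bars of 1 moderated standard error, from all 6 arrays (filled) and without Cdh1-intact array 2 (open). Atf4, at −0.58 and −0.45, and Ppp1r15a, at −1.87 and −1.76, lie below 0 either way, Trib3, Ddit3 and Dnajc3 lie nearer 0 without that array, and Asns, Chac1, Sdf2l1, Herpud1 and Atf6 lie on the other side of 0.

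In ER-associated degradation, which returns misfolded proteins to the cytosol for the proteasome, 1 of 3 genes was lower and 2 were higher. Herpud1 encodes a membrane scaffold of this machinery and read 11.32, 10.10 and 10.95 against 10.93, 10.99 and 11.20. The difference of 0.25 (SE 0.31) was −0.09 without Cdh1-intact array 2, the single low array. Sel1l, the adaptor of the ubiquitin ligase HRD1, differed by 0.19 (SE 0.12), and Edem1, which trims the mannose of misfolded glycoproteins, by −0.04 (SE 0.25). All 3 genes were lowest on Cdh1-intact array 2.

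The stress sensors showed small differences. Eif2ak3 (PERK) read 8.787, 8.996 and 8.817 against 8.742, 8.792 and 8.675, with overlap and a difference of −0.13 (SE 0.10). Ern1 (IRE1) differed by 0.07 (SE 0.27), with Cdh1-deficient array 2 (7.11) and Cdh1-intact array 2 (6.83) the high ones. Atf6, the sensor that is itself cut into a transcription factor, read 8.83, 7.51 and 8.13 against 8.06, 8.26 and 8.49. Its difference of 0.12 (SE 0.34) was −0.21 without Cdh1-intact array 2. A second Atf6 probe set differed by 0.62 without overlap.

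Atf4 and its targets were lower in all 6 group means, with a median difference of −0.68. Without Cdh1-intact array 2 only 4 of the 6 were lower and the median was −0.22. Atf4 itself read 12.11, 12.29 and 11.72 in Cdh1-intact and 11.54, 11.64 and 11.20 in Cdh1-deficient cells. The groups did not overlap, although Cdh1-intact array 3 lay only just above the highest Cdh1-deficient array. The difference was −0.58 (SE 0.20), a 1.49-fold lower level, with an adjusted p of 0.849 (limma). It was −0.45 without Cdh1-intact array 2, and a second Atf4 probe set differed by −0.37 with overlap.

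Ppp1r15a had the largest difference of the 34 genes. It read 11.22, 10.08 and 8.29 in Cdh1-intact and 7.78, 8.68 and 7.50 in Cdh1-deficient cells. Cdh1-intact arrays 1 and 2 were above all others, and Cdh1-intact array 3 lay below the highest Cdh1-deficient array. The difference of −1.87 (SE 0.76) corresponded to a 3.66-fold lower level, with an adjusted p of 0.849 (limma), and was −2.66 to −1.19 with each array left out. Its arrays stood in the order of the immediate early gene means given above, from Cdh1-intact array 1 through Cdh1-intact array 2, Cdh1-deficient array 2, Cdh1-intact array 3 and Cdh1-deficient array 1 to Cdh1-deficient array 3. The part of those genes in this difference was not tested.

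The remaining targets, in the probe sets chosen, were highest on Cdh1-intact array 2. Ddit3 read 7.52, 9.66 and 7.08 against 7.02, 7.00 and 6.75, without overlap, and its difference of −1.16 (SE 0.66) was −0.38 without that array. A second Ddit3 probe set differed by −1.04 but was highest on Cdh1-intact array 1, at 6.97, with 6.21 on array 2. Trib3, a pseudokinase that curbs ATF4 and CHOP, read 5.54, 7.79 and 5.67 against 5.66, 5.35 and 5.62. Its difference of −0.79 (SE 0.61) was −0.06 without array 2, the only array above 6. Asns, which makes asparagine, read 8.28, 11.13 and 9.54 against 9.83, 9.04 and 9.49. Cdh1-intact arrays held both its highest and its lowest value, and the difference of −0.20 (SE 0.71) was 0.54 without array 2. Chac1, which breaks down glutathione, read 5.23, 5.89 and 5.26 against 5.76, 5.20 and 4.89, a difference of −0.18 (SE 0.29) that was 0.04 without array 2. The array on which Ddit3, Trib3, Asns and Chac1 were highest was the one with low B-lineage and high T- and NK-cell markers, whose part in these differences was not tested.

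**Figure D4:**
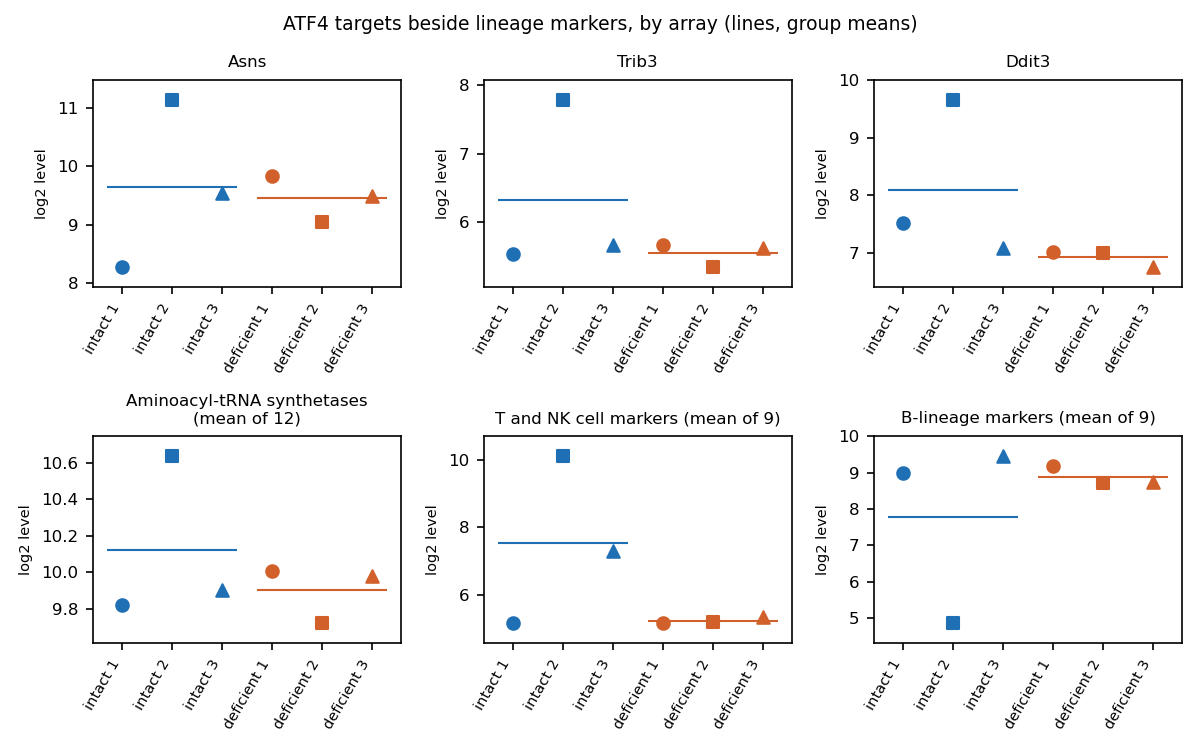
Log2 level on the 6 arrays (x axis) of the ATF4 targets Asns, Trib3 and Ddit3, beside the means of 12 aminoacyl-tRNA synthetases, 9 T- and NK-cell markers and 9 B-lineage markers; lines are group means and each panel has its own y axis range. Cdh1-intact array 2 is the highest in each panel except that of the B-lineage markers, where it is the lowest at 4.87.

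The cytosolic chaperones, the ER chaperones and the ATF4 class were also set side by side on each array as class means. The cytosolic mean was 11.13, 10.46 and 10.60 in Cdh1-intact and 10.55, 10.58 and 10.61 in Cdh1-deficient cells, high on Cdh1-intact array 1 alone. Hspb1, with the widest range of the 8 genes (3.75), was high on Cdh1-intact array 1 and low on array 2, and weighs on this mean and its distances. The ER mean was 10.37, 10.52 and 10.21 against 10.30, 10.14 and 10.10, with a small overlap. The ATF4 mean was 8.32, 9.47 and 7.93 against 7.93, 7.82 and 7.58, high on Cdh1-intact array 2. The median differences were −0.06, −0.09 and −0.68 with all arrays, and −0.15, −0.05 and −0.22 without Cdh1-intact array 2. The cytosolic mean minus the ER mean was 0.76, −0.06 and 0.39 in Cdh1-intact and 0.26, 0.44 and 0.51 in Cdh1-deficient cells. The group means of this distance differed by 0.04, or by 0.24 when Cdh1-intact array 1 was left out and −0.17 when array 2 of that group was. The distance of the ATF4 mean from the cytosolic and the ER means was larger in Cdh1-deficient cells by 0.65 and 0.61, and by 0.06 and 0.24 without Cdh1-intact array 2. On Cdh1-intact array 2 those distances were 0.99 and 1.05, against 2.05 to 3.04 on the other arrays. The absolute distances depend on the probe sets and were read between arrays only.

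Of 115 further genes of the same pathways 112 were measured, and 64 were lower and 48 higher, with a median difference of −0.04. Without Cdh1-intact array 2, 52 of the 112 were lower and the median was 0.01. With all arrays no gene of the 112 passed the limma test, and 1, Atf3, had an unadjusted p under 0.05 (0.893%, against 5.50% of all genes). Among 24 other cytosolic chaperones 11 were lower (median 0.02), with differences of 0.48 (SE 0.28) for the testis-enriched HSP70 member Hspa2 and −0.78 (SE 0.52) for the co-chaperone Dnaja4. The TRiC chaperonin, which folds actin and tubulin, had 3 of 8 subunits lower (median 0.05), with Cct6a at 0.25 (SE 0.12) and Cct3 at 0.21 (SE 0.11). Of 7 other mitochondrial chaperones and proteases 6 were higher (median 0.14), among them the iron-sulfur cluster co-chaperone Hscb at 0.31 (SE 0.16) and the exchange factor Grpel1 at 0.23 (SE 0.15).

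On the ER side, 11 of 18 other ER chaperones and folding enzymes were lower (median −0.06). The prolyl isomerase Fkbp2 differed by 0.47 (SE 0.21), Sdf2 by −0.36 (SE 0.18), and Hyou1, the large ER chaperone GRP170, by −0.07 (SE 0.10). Of 13 other degradation genes 8 were lower (median −0.01), with the channel protein Derl1 at −0.23 (SE 0.10) and the lectin Erlec1 at −0.41 (SE 0.18). Without Cdh1-intact array 2, 9 of the 13 were lower (median −0.13). Of 6 other ER stress transcription factors and proteases 5 were higher (median 0.16). Xbp1, whose mRNA IRE1 splices, differed by 0.19 (SE 0.20), Atf6b by 0.39 (SE 0.20), and the protease Mbtps2, which cuts ATF6, by 0.48 (SE 0.24). The arrays do not separate spliced from unspliced Xbp1 in these values, so IRE1 activity was not measured.

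On the ATF4 side, 17 of 20 other partners and targets were lower (median −0.22), but 8 of 20 without Cdh1-intact array 2 (median 0.01). The highest value was on that array for 13 of the 20. Atf3, an ATF4 target that is also an immediate early gene, read 8.90, 6.72 and 7.39 against 5.13, 5.57 and 6.02, with all Cdh1-intact arrays above all Cdh1-deficient ones. Its difference of −2.09 (SE 0.58) was the largest of the 20, with an adjusted p of 0.849 (limma). Psat1, of serine synthesis, read 11.25, 12.39 and 10.82 against 11.21, 11.17 and 11.24, and differed by −0.28 (SE 0.39), with Cdh1-intact array 2 alone high. The cystine transporter gene Slc7a11 lay near the floor of the arrays, where a lower level could not be seen, at 3.09 to 3.46, and the stress-inducible Nupr1 at 3.66 to 4.02.

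The aminoacyl-tRNA synthetases, which load amino acids onto tRNA and are in part ATF4 targets, were lower for 11 of 12 genes (median −0.20) and highest on Cdh1-intact array 2 for 11 of 12. Without that array 6 of 12 were lower and the median was 0.0020. Their mean was 9.82, 10.64 and 9.90 in Cdh1-intact and 10.01, 9.72 and 9.98 in Cdh1-deficient cells. Aars differed by −0.52 (SE 0.28) and Eprs by 0.22 (SE 0.15). The 4 measured eIF2alpha kinase and phosphatase genes were all lowest on Cdh1-intact array 2, with Eif2ak1 (HRI) differing by 0.36 (SE 0.19) and Eif2ak2 (PKR) by −0.18 (SE 0.35).

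All measured genes with the same promoter motifs were counted as well, against the 49.1% of all genes that were lower. Of 88 measured genes with the heat shock element 27 were lower and 61 higher (median 0.09), including Hsph1, Hspd1 and Hspe1. Of 20 with the ER stress element 9 were lower and 11 higher (median 0.01), and 7 of the 20 are the ER chaperones above. Of 468 with TGATGNAA 250 were lower and 218 higher (median −0.01). Of 422 with TGACGTCA 204 were lower and 218 higher (median 0.01). Of 143 with TGACGTGG 63 were lower and 80 higher (median 0.02). Of 9 with the variant ER stress element 3 were lower and 6 higher (median 0.12). None of these genes passed the limma test. The counts with unadjusted p under 0.05 were 6, 0, 27, 29, 5 and 1 in that order, against 5.50% of all genes.

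Inducible HSP70 was read from Hspa1a and Hspa1b, near-identical neighbouring copies whose signals may not be separable. Hspa1b read 12.62, 9.29 and 6.60 in Cdh1-intact and 6.16, 10.06 and 5.70 in Cdh1-deficient cells. Hspa1a read 11.58, 5.72 and 4.12 against 4.78, 8.13 and 4.01. Cdh1-intact array 1 was the highest for both and Cdh1-deficient array 2 was high in its own group, and the differences of −2.20 (SE 1.83) and −1.50 (SE 2.13) lay within the spread. Cdh1-intact array 1 was also the highest for Hspb1, Bag3, Dnajb1 and Hsph1. Among the immediate early genes, Egr1 read 11.89, 11.03 and 7.72 against 7.36, 10.45 and 6.16, and Fos 13.092, 12.845 and 12.348 against 10.586, 11.996 and 8.373. In both, Cdh1-deficient array 2 was likewise the highest of its group.

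**Figure D5:**
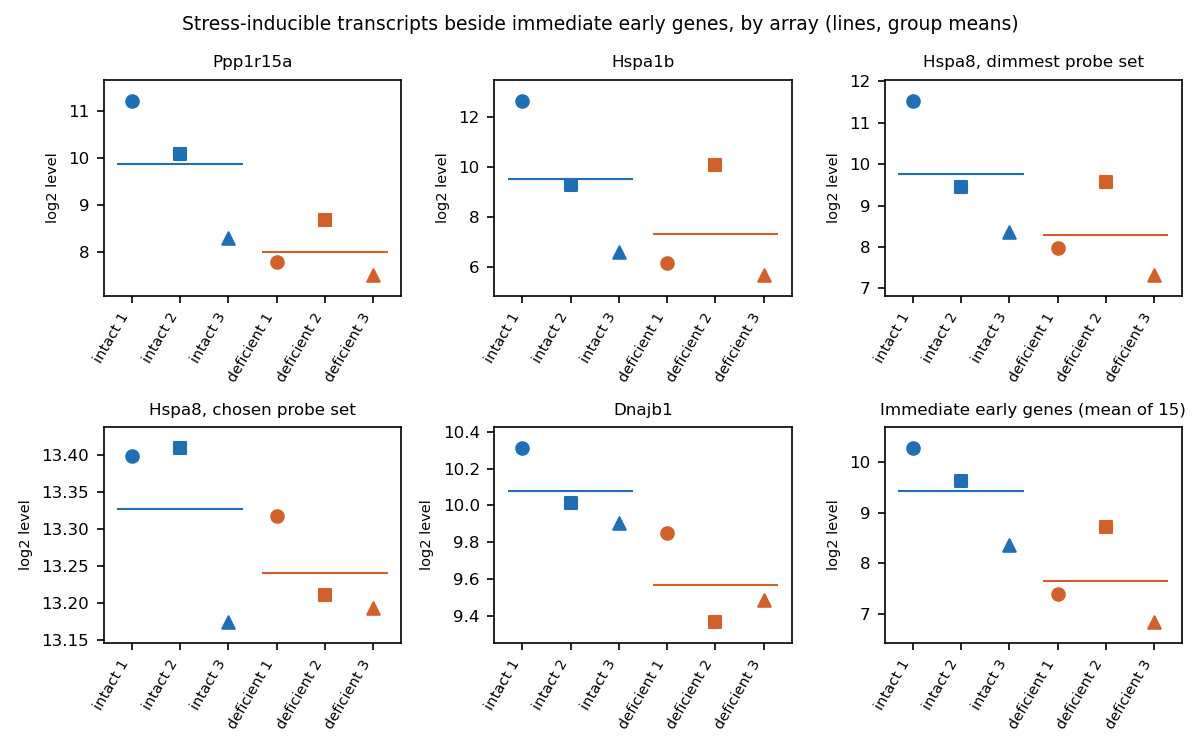
Log2 level on the 6 arrays (x axis) of Ppp1r15a, Hspa1b, Dnajb1, the chosen and the dimmest Hspa8 probe sets, and the mean of 15 immediate early genes; lines are group means and each panel has its own y axis range. Cdh1-intact array 1 is the highest in each panel but that of the chosen Hspa8 probe set, which spans only 13.17 to 13.41.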

How the data were processed

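The authors deposited log2 values for 45101 Affymetrix probe sets on 6 arrays, which they obtained with RMA (no version stated), per the submitters' processing notes. RMA subtracts background, equalizes the distributions of the arrays and combines the probes of a set, so a shift of total RNA per cell would not be seen. Array medians lay between 5.07 and 5.13, and precision is limited by the number of arrays. Gene symbols came from the platform's 2016 annotation. It listed 35890 probe sets, of which 932 with several symbols and 13 control probe sets were not used, and 34741 of the 34945 others, with 1 symbol each, matched a gene of the RefSeq table (GRCm38.p6). The highest mean per gene gave 18193 genes, with no filter on level.

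The sample labels gave the group and number of each array. All genes were fitted with limma 3.58.1 in R 4.3.3, the tool that the series description names (lmFit and eBayes without trend, two-sided, 6 arrays, no covariate), with Benjamini-Hochberg adjustment over all genes and a threshold of 0.05, and the script was tested on simulated data. Members, pathway lists, markers and motifs were chosen with earlier results of these data known. All members are named. Of each pathway list the 2 genes of smallest unadjusted p are named, with Hspa1a, Hspa1b, Xbp1, Hyou1, Atf3, Slc7a11 and Psat1, and of the markers Cd79b, Cd3d, Fos and Egr1. Alternatives were the mean of all probe sets, shared-target probe sets or the lowest 25% of levels left out, trend with robust estimation, quantile normalization, median centring, a replicate block, and each array left out. Pathway list counts without Cdh1-intact array 2 were added after seeing the data.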

Additional observations from a re-analysis of the deposited data

How the results depend on the processing

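No gene of the 18193 and none of the members passed an adjusted p of 0.05 under any of the 13 alternatives, and the lowest adjusted p of a member was 0.359. Of 436 member differences recomputed under the alternatives 406 had the same direction and 30 were reversed, and 20 members were never reversed. Trend with robust estimation, the replicate block and the removal of low levels cannot change a difference, so their directions were fixed in advance. Without shared-target probe sets 6 members could not be read. Replicate numbers did not pair the arrays (correlations of same-numbered deviations −0.139, 0.0112 and 0.0407, and 1 of 6 arrays correlated best with its own number). With the replicate block 5 members had an unadjusted p under 0.05 (5.36% of all genes) against 2 without it (5.50%), and 0 an adjusted one. With the mean of all probe sets, 2 members had groups that did not overlap (as had 2179 of all 18193 genes), the sensor median was −0.16, and the differences were −0.14 for Hsp90aa1, −0.087 for Dnaja1, −0.0024 for Calr and −0.16 for Ern1. Without shared-target probe sets 4 of the 28 members left had an unadjusted p under 0.05 (5.50% of all genes) and Hsp90aa1 differed by −0.30, and with quantile normalization Calr differed by −0.010. The cause of these shifts was not tested.

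With each array left out in turn, the count of members with unadjusted p under 0.05 ranged from 0 (without Cdh1-intact array 1; 5.63% of all genes) to 7 (without Cdh1-intact array 3; 9.62%). That of members without overlap ranged from 6 (without Cdh1-deficient array 3; 17.3% of all genes) to 14 (without Cdh1-intact array 3; 28.4%), against 11.7% of all genes with every array in. All genes with unadjusted p under 0.05 numbered 442 (without Cdh1-deficient array 3) to 1751 (without Cdh1-intact array 3). Median differences ranged from −0.18 to 0.053 for the cytosolic chaperones, from 0.15 to 0.21 for the mitochondrial ones, from −0.093 to 0.27 for ER-associated degradation, from −0.16 to 0.22 for the sensors and from −0.19 to −0.03 for the ER chaperones. For Atf4 and its targets they ranged from −1.03 (without Cdh1-intact array 1) to −0.22 (without Cdh1-intact array 2). The single differences that were reversed ranged from −0.030 to 0.097 for Hsp90aa1, from −0.040 to 0.097 for Dnaja1, from −1.30 to 0.58 for Hspb1, from −0.015 to 0.16 for Hspa4, from −0.26 to 0.33 for Bag3, from −0.12 to 0.12 for Calr, from −0.31 to 0.22 for Sdf2l1 and from −0.11 to 0.0037 for Creld2. They ranged from −0.093 to 0.51 for Herpud1, from −0.26 to 0.13 for Edem1, from −0.19 to 0.22 for Ern1, from −0.21 to 0.45 for Atf6, from −0.88 to 0.54 for Asns and from −0.42 to 0.036 for Chac1. Atf4, Ppp1r15a, Dnajb1, Dnajb9 and Dnajc3 were among the 20 members that kept their direction under every alternative run. So were Hspd1, Hspe1, Hspa9, Hsp90b1, Pdia6 and Sel1l, which were higher.

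With 3 arrays per group, and with 1 Cdh1-intact array that differs from the rest in lineage markers, differences below the spread of that group are not resolved. Genes near the floor, such as Slc7a11, could not show a lower level.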

Other observations

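Probe sets of 1 gene did not always follow each other. The 34 members had 87 probe sets, and 27 members had several. Of the 53 probe sets not chosen 32 had the sign of the chosen one, and of the 35 with a mean level of at least 6, 25 did. Hspa8 gave the widest contrast, and was picked out after its values were seen. Its chosen probe set spanned 13.17 to 13.41 over the arrays, while the dimmest read 11.53, 9.44 and 8.35 in Cdh1-intact and 7.96, 9.58 and 7.33 in Cdh1-deficient cells. Its difference was −1.48, with Cdh1-intact array 1 and Cdh1-deficient array 2 the highest. Those arrays were also the highest for Hspa1b, at 12.62 and 10.06. The 3 Dnaja1 probe sets differed by 0.03, −0.24 and −0.06, and the one at −0.24 had no overlap between the groups.

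Hspb1 separated the Cdh1-intact arrays in both of its probe sets. The second read 9.56, 5.03 and 7.58 in Cdh1-intact and 6.40, 7.40 and 7.36 in Cdh1-deficient cells, with the same Cdh1-intact arrays highest and lowest as in the chosen one.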
